A study of Homo sapiens with 19 samples.

Results

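The basement membrane is a thin sheet of extracellular matrix, built on a polymer of laminin trimers and a covalently linked network of collagen IV trimers, which nidogen and perlecan connect. Its proteins are translated on the endoplasmic reticulum (ER), folded and trimerised there, and secreted, so their mRNAs are held on ER membranes while they are translated. Fibronectin is a secreted matrix glycoprotein whose mRNA is alternatively spliced, and the extra domain A and B exons (EDA and EDB) are skipped in the plasma form made by liver and included to varying degrees by cells in tissue and culture.

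The genes described here were 10 of the 22760 annotated genes with junction reads in any library, and they were chosen by name. They comprised collagen IV alpha 1 and alpha 2 (COL4A1, COL4A2), the laminin chains alpha 5, beta 1 and gamma 1 (LAMA5, LAMB1, LAMC1), nidogen 1 (NID1), perlecan (HSPG2), fibronectin (FN1), the collagen-binding matricellular protein SPARC and the collagen receptor tyrosine kinase DDR2. Each was measured through reads that cross its annotated introns (GENCODE 29 annotation, build hg38), and introns with reads numbered from 11 of 15 in SPARC to 102 of 109 in HSPG2. All 10 passed the low-count filter of the test across genes, which kept 13628 genes.

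Ribosomal-RNA-depleted total RNA of 3 human cell lines gave 19 libraries. A375, a melanoma line, gave 1 library each of total, nuclear and cytoplasmic RNA, the fractions being the pellet and the supernatant of a low-salt lysis with Triton X-100. HEK293, a line of embryonic kidney origin, gave 1 wild-type library, and HUES66, a human embryonic stem cell line, gave 1 library labelled wild type whose deposited library name carries the same word, empty, as the knockdown controls. The other 14 libraries were HUES66 cells in 1 µg/ml doxycycline in a study of RNA knockdown with Cas13d, an RNA-guided RNA nuclease, directed at the splicing regulator RBFOX2. They comprised controls labelled wild type (24 hr replicate 2, 48 hr and 96 hr), knockdown of total RBFOX2 (24 hr replicate 1, 48 hr and 96 hr), and knockdown of the isoforms that the labels call N-short and N-long (24 hr replicates 1 and 2, 48 hr and 96 hr each). By time point and replicate number these were taken as 4 library sets, of which 24 hr replicate 1 has no control and 24 hr replicate 2 has no total knockdown. A375 and HEK293 were grown in serum, whereas HUES66 was grown in StemFlex medium on Geltrex, a basement membrane extract used as a coating. Nothing in the labels states that libraries of a group came from separate cultures, so p-values measure the spread between these libraries, which may be technical.

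The doxycycline-treated libraries held 9622841 to 14625040 junction reads, and the A375 total, nuclear and cytoplasmic libraries held 8412005, 6499183 and 22344622. Between 93.35% and 94.76% of junction reads were assigned to 1 gene. Levels are given as CPM, the usual scale of counts relative to library size, computed from the junction reads of a gene and those assigned to all genes in that library, which depends on the number of introns and read length as well as on RNA amount. RBFOX2 itself was lower in the total knockdown (log2 fold change -0.82, adjusted p = 1.12e-08) and the N-long knockdown (-0.57, adjusted p = 3.43e-05), with -0.06 (adjusted p = 0.998) in the N-short knockdown, by edgeR's quasi-likelihood test with Benjamini-Hochberg adjustment over all genes tested. Of the markers that define each line, pluripotency genes summed to 3629 to 5505 CPM in the 14 treated HUES66 libraries and 4292 CPM in wild-type HUES66, against 58.6 in A375 and 61.6 in HEK293. Melanocyte genes summed to 314 CPM in A375, with MLANA and TYR at 0, against 111 in wild-type HUES66 and 9.9 in HEK293.

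The splicing result turned on 1 exon of FN1, so the sequences that carry it are shown first. Lower case marks the last 15 bases of the upstream exon and capitals mark the first 15 bases of the downstream exon, as read from the GENCODE 29 transcript on the minus strand of chromosome 2.
EDB upstream inclusion junction: ataccatcatcccagAGGTGCCCCAACTCA
EDB downstream inclusion junction: tgacacaacaaacggCTGTTCCTCCTCCCA
EDB skipping junction: ataccatcatcccagCTGTTCCTCCTCCCA
EDA upstream inclusion junction: agactgcagtaaccaACATTGATCGCCCTA
EDA downstream inclusion junction: gaacccagtccacagCTATTCCTGCACCAA
EDA skipping junction: agactgcagtaaccaCTATTCCTGCACCAA
The EDB exon, 273 bases at chr2:215392931-215393203, encodes 1 whole type III repeat of the protein and keeps the reading frame when skipped.
EDB exon: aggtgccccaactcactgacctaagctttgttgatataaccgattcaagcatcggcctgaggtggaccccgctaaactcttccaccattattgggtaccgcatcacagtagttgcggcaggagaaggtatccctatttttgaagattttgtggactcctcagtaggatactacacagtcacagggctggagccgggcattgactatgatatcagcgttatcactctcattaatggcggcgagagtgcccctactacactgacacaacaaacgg
The EDA exon has 270 bases at chr2:215380811-215381080. RBFOX proteins bind the motif GCATG in pre-mRNA, and the intron downstream of the EDB exon is known to carry copies of it, but intron sequence was not used here.

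In the stem cells, the EDB exon was nearly always included in the controls and was skipped more often after total RBFOX2 knockdown. Inclusion was taken as the mean reads of both inclusion junctions over that mean plus the skipping reads. The controls had 46 inclusion and 1 skipping reads at 24 hr replicate 2 (97.9% inclusion), 63 and 1 at 48 hr (98.4%), and 63 and 0 at 96 hr (100%). The total knockdown had 46 and 2 at 24 hr replicate 1 (95.8%), 56 and 18 at 48 hr (75.7%, 95% Wilson interval 64.8 to 84.0), and 45 and 12 at 96 hr (78.9%, 66.7 to 87.5). All 3 total knockdown libraries were below all 3 controls, the 24 hr library by the least. Intervals here and below cover counting error only.

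The skipping junction had more reads in the total knockdown at both times while the inclusion junctions were level or lower. At 48 hr the skipping junction had 1 read without the knockdown and 18 with it, and at 96 hr it had 0 and 12. The upstream inclusion junction had 57 reads in both 48 hr libraries, and 69 in the control and 47 in the total knockdown at 96 hr. The downstream inclusion junction had 68 and 55 reads at 48 hr and 57 and 43 at 96 hr, in the same order. The 96 hr total knockdown library is the shallower of its pair. The fitted log2 odds of inclusion changed by -4.03 (SE 0.75, adjusted p = 8.1e-04, edgeR's quasi-likelihood test of inclusion against skipping reads with Benjamini-Hochberg adjustment), which ranked 35 among 6832 cassette exons. Of these exons, 88 (1.29%) passed. Within the sets that hold both libraries, inclusion differed by -21.9 ± 1.21 percentage points (SD, n = 2 sets). The call was lost without the 48 hr total knockdown (log2 odds -3.29, adjusted p = 0.0854) and without the 96 hr control (-2.98, adjusted p = 0.119), and with limma on log2 ratios of reads (-3.25, adjusted p = 0.301). In the authors' deposited table, the control minus knockdown difference in inclusion of this exon was 0.026 at 24 hr (adjusted p = 1.00), 0.229 at 48 hr (adjusted p = 0.00456) and 0.212 at 96 hr (adjusted p = 0.00732).

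The isoform knockdowns gave smaller differences from control, which were not tested against the total knockdown. The N-long knockdown had 91.5% (54 inclusion and 5 skipping reads) and 97.3% (36 and 1) at 24 hr replicates 1 and 2, 92.3% (72 and 6) at 48 hr and 81.7% (49 and 11, Wilson interval 70.1 to 89.4) at 96 hr. Each N-long library lay below the control of its own set where there was one, by -8.35 ± 9.08 percentage points (SD, n = 3 sets). The test did not pass (log2 odds -3.23, SE 0.81, adjusted p = 0.0557, edgeR's quasi-likelihood test, where 32 exons or 0.468% passed). It did pass without the 24 hr control (-4.07, adjusted p = 0.0225) or without the 48 hr N-long library (-3.84, adjusted p = 0.0223). Other omissions weakened it: over all 7 omissions of 1 library, the log2 odds ran from -4.07 to -2.19 and the adjusted p of the same test from 0.0223 to 0.822.

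In the N-short knockdown, inclusion was 98.3%, 100%, 97.2% and 93.0% in the same order of libraries. The test against control gave a log2 odds change of -1.48 (adjusted p = 1.00, edgeR's quasi-likelihood test, where 1 exon or 0.0146% passed). N-long libraries were below N-short libraries of the same set in 4 of 4 sets, by -6.43 ± 3.68 percentage points (SD, n = 4 sets), but the direct test of the difference did not pass (-1.75, adjusted p = 0.669, where 24 exons or 0.351% passed). In the authors' deposited table, the N-long difference was 0.041, 0.061 and 0.185 at 24, 48 and 96 hr (adjusted p = 1.00, 0.882 and 0.0661), and the N-short difference was -0.007, 0.012 and 0.070 (adjusted p = 0.923 at 96 hr).

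**Figure D1:**
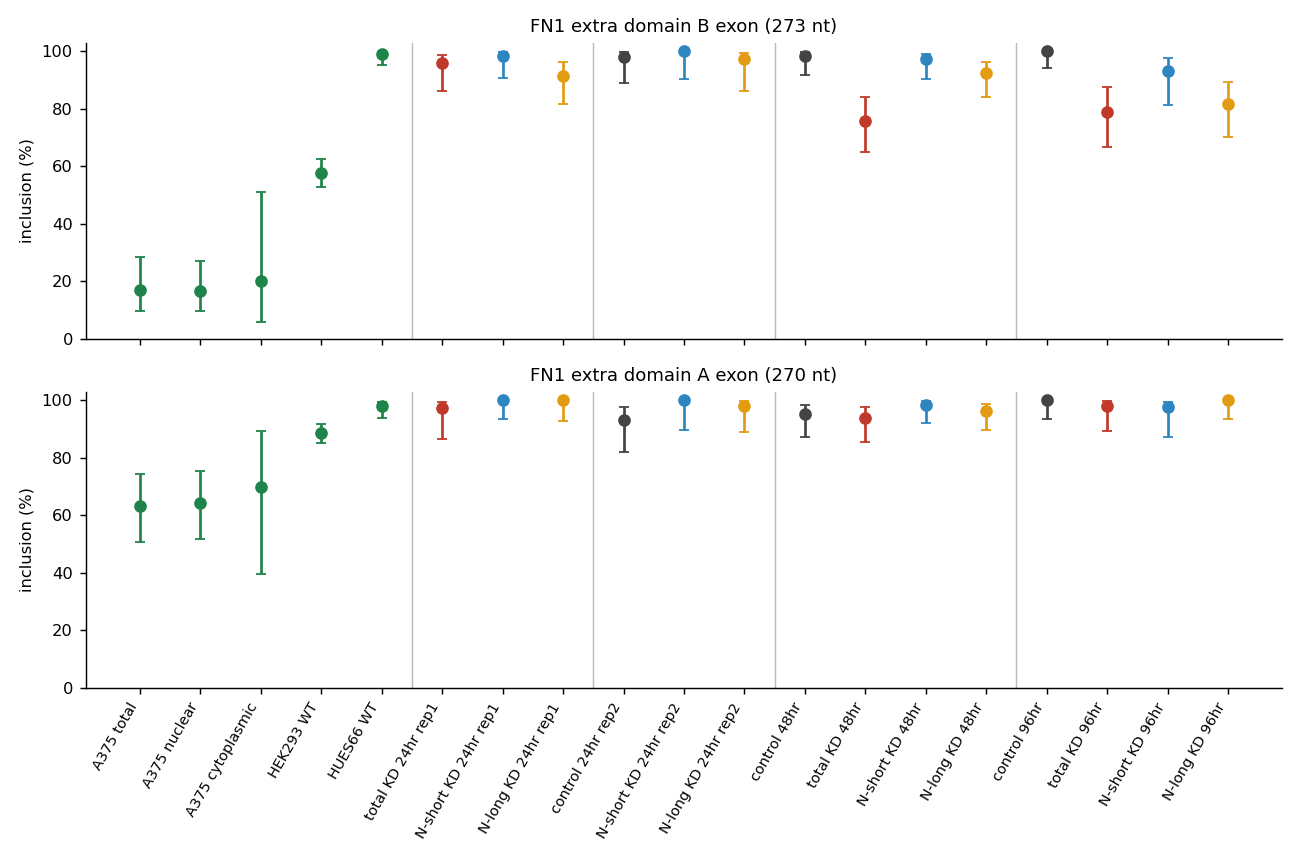
Percent inclusion of the FN1 EDB and EDA exons (vertical axis) in each of the 19 libraries (horizontal axis), with 95% Wilson intervals as bars. EDB lies at 75.7% and 78.9% in the total knockdown at 48 and 96 hr, at 97.9% to 100% in the controls, at 57.7% in HEK293 and at 16.9% in A375 total RNA.

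The lines spanned a wider range of EDB inclusion than the HUES66 libraries did. EDB inclusion was 99.1% in wild-type HUES66 (115 inclusion and 1 skipping reads), 57.7% in HEK293 (217 and 159, Wilson interval 52.7 to 62.6) and 16.9% in A375 total RNA (10 and 49, 9.5 to 28.5). The 3 intervals of these lines did not overlap, but each line has 1 library. In A375 the nuclear fraction gave 16.7% (12 and 60) and the cytoplasmic fraction 20.0% (2 and 8), a difference that was not detectable at this depth.

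The EDA exon stayed at 93.3% to 100% in the HUES66 libraries, and no knockdown or time contrast called it or EDB between 48 and 96 hr (16.4% of exons passed between the times). It was included at 88.8% in HEK293 (324 inclusion and 41 skipping reads) and 63.3% in A375 total RNA (38 and 22), in the same order of lines as EDB. The A375 nuclear and cytoplasmic fractions had 64.4% and 70.0%. The variable region exon of FN1 near its 3′ end (IIICS) was tested in forms of 267 and 192 bases, which share their downstream inclusion junction. By the measure above they gave 89.6% to 97.1% and 85.2% to 96.2% across the treated libraries, and no contrast called either. Each value counts the shared junction and leaves out the other form, so neither gives the share of 1 form. Of other members, LAMA5 had 2 of 4 candidate cassette exons tested, of 83 and 270 bases (chr20:62336904-62336986 and chr20:62350988-62351257). In the treated libraries they were included at 0% to 10.7% and 0% to 6.7%, and neither was called. The other candidates were not tested. Those of LAMA5 (2), HSPG2 (3), LAMB1 (2) and SPARC (1) and a 46-base one of FN1 had enough reads but pooled inclusion outside 2% to 98%, and the 1 of DDR2 had a mean of 1.5 reads.

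In A375, the RNAs of all 10 members were far more abundant in nuclear than in cytoplasmic RNA, relative to the assigned reads of each library. The nuclear to cytoplasmic ratio ran from 8.28 in DDR2 to 34.3 in COL4A2, with a median of 17.2, while the median of 12759 genes with at least 20 reads in the 2 fractions was 0.929. All 10 were at least 2-fold higher in the nuclear fraction, where 22.8% of genes were. Each fraction is 1 library, so there is no replicate check and no test. The nuclear fraction is the pellet of the lysis, and whether RNA on ER membranes remained in it was not tested. Intervals for these ratios are exact 95% intervals of a ratio of 2 counts.

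The collagen IV chains had the highest ratios of the 10. COL4A1 (ENSG00000187498.15, chr13:110148963-110307233) had 530 CPM in total, 849 in nuclear and 24.8 in cytoplasmic RNA, a ratio of 34.2 (31.2 to 37.5). COL4A2 (ENSG00000134871.18, chr13:110305812-110513209), which lies head to head with COL4A1 and encodes the partner of the same trimer, had 1053, 1682 and 49.0 CPM, a ratio of 34.3 (32.2 to 36.6). The intervals of the 2 chains overlapped nearly in full, and 0.133% of genes had a ratio above that of COL4A2.

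Among laminin chains, LAMC1 (ENSG00000135862.5, chr1:183023460-183145592) had 1658 CPM in total, 2610 in nuclear and 133 in cytoplasmic RNA, a ratio of 19.6 (18.8 to 20.4). LAMB1 (ENSG00000091136.13, chr7:107923799-108003255) had 1899, 2969 and 218 CPM, a ratio of 13.6 (13.2 to 14.1). LAMA5 (ENSG00000130702.15, chr20:62307955-62367312) had 801, 1150 and 113 CPM, a ratio of 10.2 (9.74 to 10.7). These chains assemble into 1 trimer, laminin-511, yet their ratios had intervals that did not overlap.

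The linker NID1 (ENSG00000116962.14, chr1:235975830-236065162) had 284 CPM in total, 434 in nuclear and 24.3 in cytoplasmic RNA, a ratio of 17.8 (16.2 to 19.7). The proteoglycan HSPG2 (ENSG00000142798.19, chr1:21822245-21937297) had 422, 628 and 38.0 CPM, a ratio of 16.5 (15.3 to 17.8). These intervals overlapped each other, so the order of NID1 and HSPG2 is not resolved by the counts.

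FN1 (ENSG00000115414.18, chr2:215360440-215436172) had 343 CPM in total, 571 in nuclear and 21.1 in cytoplasmic RNA, a ratio of 27.0 (24.5 to 30.0), between the collagen IV chains and the rest. SPARC (ENSG00000113140.10, chr5:151661096-151687165) had 1531, 2383 and 175 CPM, a ratio of 13.6 (13.1 to 14.1), equal to that of LAMB1 within counting error. DDR2 (ENSG00000162733.17, chr1:162631373-162787400), the membrane receptor among the 10, had 177, 248 and 30.0 CPM, a ratio of 8.28 (7.54 to 9.10), and 5.00% of genes had a higher ratio than this lowest member. Nuclear RNA exceeded total RNA by a factor of 1.40 to 1.67, and cytoplasmic RNA was 0.047 to 0.17 of total.

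**Figure D2:**
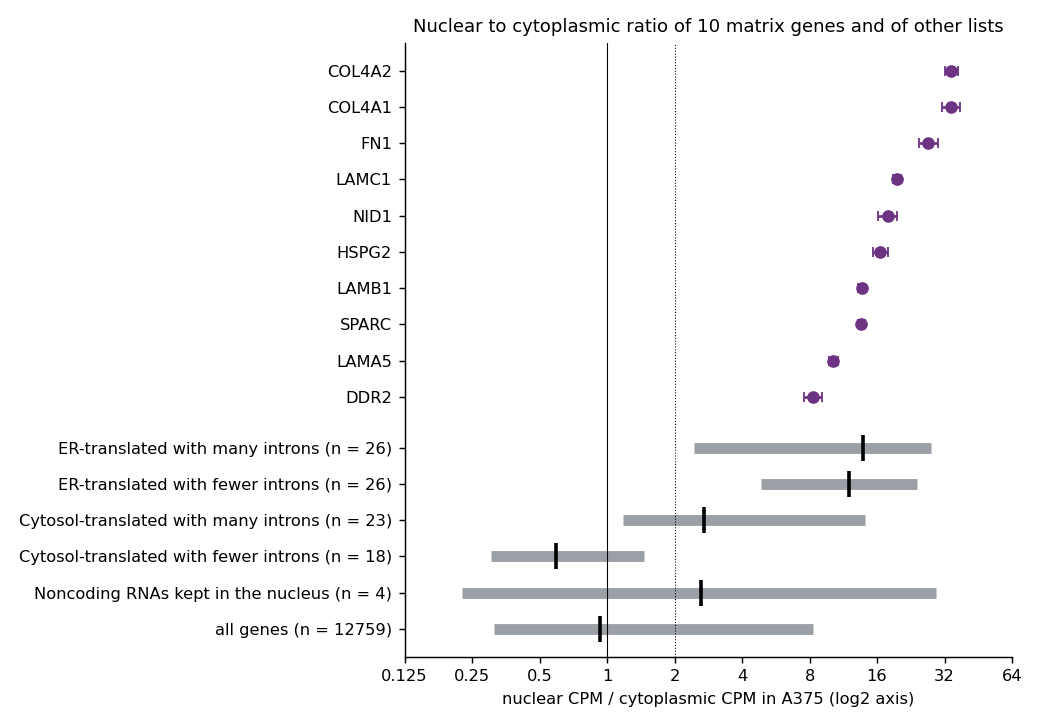
Nuclear over cytoplasmic CPM in A375 (log axis) for each member, with exact 95% intervals, beside lists of ER-translated and cytosol-translated genes. The 10 members lie between 8.28 and 34.3, above the median of all genes at 0.929.

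Other ER-translated RNAs also had ratios above the median of all genes, and 21 of 26 with many introns and 19 of 26 with fewer lay above the lowest member, DDR2. Of 26 measured ER-translated genes with many introns (receptors and matrix proteins such as LRP1 and FBN1), 26 were at least 2-fold higher in the nuclear fraction, with a median ratio of 13.8. Of 26 with fewer introns (chaperones and lysosomal or membrane proteins such as HSPA5 and LAMP1), 26 were as well, with a median of 11.99. Cytosol-translated genes with many introns (such as FLNA and MYH9) had 14 of 23 at least 2-fold higher and a median of 2.704, and those with fewer introns (such as ACTB and GAPDH) had 0 of 18 and a median of 0.592.

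Most related matrix genes were also higher in the nuclear fraction, but many lay below the range of the members. Of the other basement membrane proteins, 16 of 17 were at least 2-fold higher in the nuclear fraction (median 13.5), as were 6 of 7 other laminin chains (median 6.08) and 17 of 20 genes of collagen folding, modification and export (median 7.07). In the same order, 12, 2 and 8 of these genes had a ratio above that of the lowest member, DDR2. RBFOX2, translated in the cytosol, had a ratio of 0.662. Of 4 measured long noncoding RNAs, 2 were at least 2-fold higher in the nuclear fraction, MALAT1 (ratio 29.2) and NEAT1 (3.79). TUG1 (1.48) and OIP5-AS1 (0.226) were not.

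The excess in the nuclear fraction ran along the length of each RNA. Each intron of the annotated transcript with at least 20 reads in the 2 fractions was at least 2-fold higher in the nuclear library, in all 10 members. In HSPG2 this covered 94 introns, in LAMA5 79 (ratios 5.02 to 22.1), in COL4A1 51 (15.7 to 67.9), in COL4A2 47 (16.1 to 80.9) and in FN1 44 (9.52 to 136). In DDR2 it covered 17, with ratios of 6.85 to 11.9.

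The introns of each transcript were also split at the middle intron. In 3 members the 5′ and 3′ parts differed beyond counting error, and in the other 7 the intervals overlapped. LAMA5 had a ratio of 13.9 (12.9 to 14.95) over the 5′ part of its introns and 7.94 (7.47 to 8.45) over the 3′ part. HSPG2 had 20.3 (18.1 to 22.8) and 13.6 (12.2 to 15.1). SPARC went the other way, with 11.5 (10.8 to 12.2) and 15.03 (14.4 to 15.8). The parts of COL4A1 were 37.3 (32.9 to 42.5) and 30.9 (27.2 to 35.3), with overlapping intervals.

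The members were mostly higher in A375 than in the other lines. DDR2 had 177 CPM in A375, 2.00 in HEK293 (18 reads) and 1.29 in wild-type HUES66 (34 reads), so A375 was 86.0-fold (55.7 to 150) and 135-fold (97.8 to 199) higher. SPARC had 1531, 84.4 and 205 CPM and LAMB1 1899, 195 and 166 CPM in the same order. Relative to HUES66, SPARC was 7.47-fold and LAMB1 11.4-fold higher in A375. In all, 7 of 10 members were at least 2-fold higher in A375 than in HUES66, where 22.6% of genes were, and 0 were at least 2-fold lower, where 22.5% of genes were. Each line is 1 library, so these ratios have no replicate check.

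COL4A1, COL4A2, LAMC1 and NID1 differed less between A375 and HUES66 than DDR2, SPARC and LAMB1 did. COL4A1 had 530 CPM in A375, 441 in HEK293 and 359 in wild-type HUES66, and COL4A2 had 1053, 456 and 345. LAMC1 had 1658, 418 and 267, and NID1 had 284, 130 and 67.9. A375 had the highest level of each, 1.47-fold (COL4A1), 3.05-fold (COL4A2), 6.21-fold (LAMC1) and 4.18-fold (NID1) above HUES66.

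HSPG2 and LAMA5 were low in HEK293. HSPG2 had 422 CPM in A375, 22.1 in HEK293 and 367 in HUES66, and LAMA5 had 801, 77.8 and 287. HUES66 was 16.6-fold above HEK293 for HSPG2 and 3.69-fold for LAMA5, and with SPARC (2.43-fold) these were the 3 members at least 2-fold higher in HUES66 than in HEK293, where 19.9% of genes were. HSPG2 differed by 1.15-fold between A375 and wild-type HUES66. That ratio was 0.952 when the 24 hr control stood for the stem cells.

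FN1 alone among the 10 was highest in HEK293, at 2064 CPM against 343 in A375 and 222 in HUES66. HEK293 was 6.02-fold above A375 and 9.30-fold above HUES66. It was the 1 member at least 2-fold lower in A375 than in HEK293 (18.9% of genes), while 8 of 10 were at least 2-fold higher (19.3% of genes). It was also the 1 member at least 2-fold lower in HUES66 than in HEK293 (20.2% of genes).

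**Figure D3:**
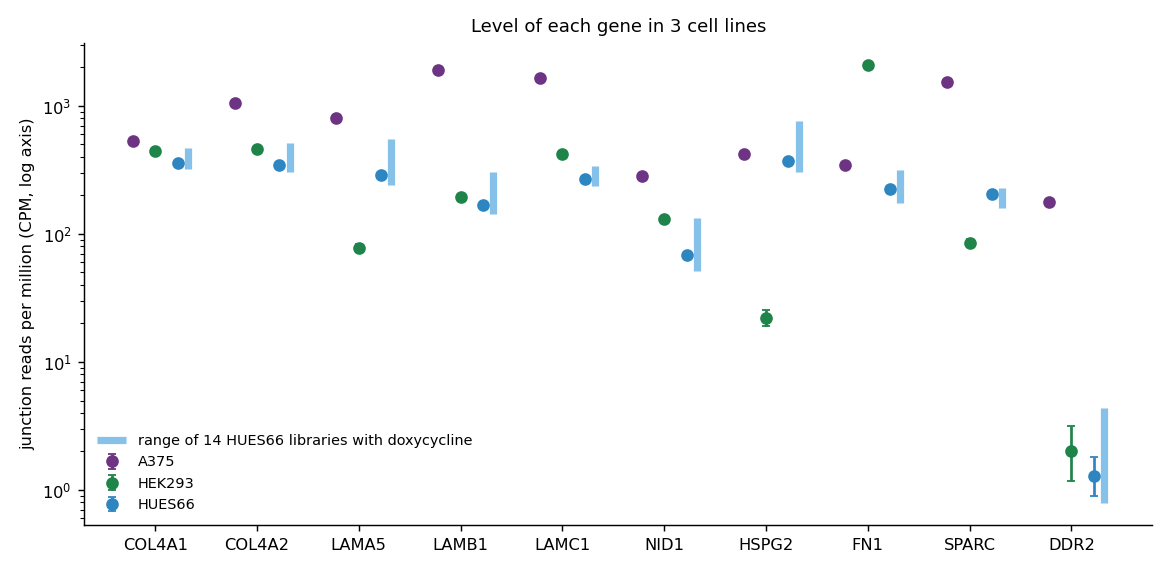
CPM (log axis) of each member in A375 total RNA, HEK293 and HUES66, with the range of the 14 treated HUES66 libraries as a vertical bar. FN1 is highest in HEK293 at 2064, and DDR2 is 177 in A375 against 2.00 and 1.29 in HEK293 and HUES66.

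The balance between chains of 1 trimer also differed between lines. COL4A2 had 1.99 times the junction reads of COL4A1 in A375 total RNA (1.92 to 2.06) and 1.98 times in both fractions, against 1.04 in HEK293 and 0.88 to 1.10 across the HUES66 libraries. The genes have similar numbers of introns, 51 and 47 in the annotated transcripts. Per intron, as the median CPM of a member's introns, SPARC had the highest level of the 10 in A375 (187) and in HUES66 (25.5), while FN1 had the highest in HEK293 (43.4, against 10.6 for SPARC). On the same scale LAMB1 and LAMC1 were nearly level in A375 (60.3 and 62.0), but LAMB1 was below LAMC1 in HEK293 (6.004 and 15.5) and in HUES66 (5.19 and 9.73). LAMA5 was below both in all 3 lines, at 9.64, 1.00 and 3.48.

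In the stem cells, total RBFOX2 knockdown changed 6 of 10 members, 5 lower (log2 fold changes of -0.29 to -0.18) and DDR2 higher (1.91). Among all genes, 300 of 13628 passed (2.20%), 138 of them higher (1.01%) and 162 lower (1.19%). The median log2 fold change was -0.15 over the members and -0.00 over all genes tested. Fewer cells of a type and less RNA per cell cannot be told apart in such bulk libraries.

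DDR2, which binds fibrillar collagens at the cell surface, stood near the floor in the controls. It had 1.19, 0.87 and 0.79 CPM (12, 10 and 10 reads) in the controls at 24 hr replicate 2, 48 hr and 96 hr, and 3.81, 4.34 and 2.88 CPM (52, 59 and 30 reads) in the total knockdown at 24 hr replicate 1, 48 hr and 96 hr. The groups did not overlap. The total knockdown was at 500% of control at 48 hr (exact interval 254 to 1097) and 364% at 96 hr (173 to 834). The fitted log2 fold change was 1.91 (SE 0.32, adjusted p = 2.86e-04, edgeR's quasi-likelihood test with Benjamini-Hochberg adjustment).

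The reads that added to DDR2 were spread over its transcript. Of 17 introns, 16, 16 and 15 had reads in the 3 total knockdown libraries, against 8, 7 and 8 in the controls. Even at its highest in HUES66, 4.34 CPM, DDR2 lay far below its 177 CPM in A375. DESeq2 gave it no adjusted p (unadjusted p = 1.04e-05).

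HSPG2, the proteoglycan that binds laminin, nidogen and growth factors, had 444, 748 and 334 CPM in the controls (24 hr replicate 2, 48 hr, 96 hr) and 305, 553 and 301 in the total knockdown (24 hr replicate 1, 48 hr, 96 hr). The groups overlapped because the sets differ, but within a set the total knockdown was lower, at 73.9% of control at 48 hr and 90.1% at 96 hr. The fitted log2 fold change was -0.29 (SE 0.05, adjusted p = 3.85e-04). Reads were lower on 91 of 96 introns at 48 hr and on 64 of 96 at 96 hr.

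NID1, which bridges laminin and collagen IV, had 93.0, 132 and 58.7 CPM in the controls and 57.4, 101 and 51.7 in the total knockdown, in the same order, and the groups overlapped. Within a set it was at 76.3% and 88.0% of control at 48 and 96 hr (log2 fold change -0.29, SE 0.06, adjusted p = 0.00428, edgeR's quasi-likelihood test), lower on 18 and 15 of 19 introns. The call was lost without the 48 hr control (adjusted p = 0.0662) and without the 48 hr total knockdown (adjusted p = 0.199).

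SPARC, a secreted chaperone-like binder of collagen, had 190, 229 and 168 CPM in the controls and 164, 174 and 159 in the total knockdown, overlapping groups. The 48 hr difference was the larger, 75.7% of control against 94.6% at 96 hr (log2 fold change -0.27, SE 0.05, adjusted p = 4.91e-04, edgeR's quasi-likelihood test). All 9 introns were lower at 48 hr and 7 at 96 hr.

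LAMC1, the gamma chain of most laminins, had 299.6, 340 and 283 CPM in the controls and 238, 305 and 248 in the total knockdown, and the groups overlapped. Within a set it was at 89.7% and 87.4% of control, lower on 23 of 27 introns at both times (log2 fold change -0.18, SE 0.04, adjusted p = 0.0019, edgeR's quasi-likelihood test). The differences at 48 and 96 hr were of about the same size.

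FN1 had 224, 316 and 249 CPM in the controls and 175, 271 and 247 in the total knockdown, overlapping groups. Within a set it was at 85.6% of control at 48 hr and 99.1% at 96 hr (log2 fold change -0.20, SE 0.05, adjusted p = 0.0473, edgeR's quasi-likelihood test). The call was close to the threshold. It was lost without any one of the 24 hr, 48 hr or 96 hr control (adjusted p = 0.204, 0.119 and 0.0658) or the 24 hr or 48 hr total knockdown (0.135 and 0.302), and with DESeq2 (0.208).

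The remaining 4 members did not pass. LAMB1 had a log2 fold change of -0.13 (adjusted p = 0.133), COL4A1 -0.02 (adjusted p = 0.875), COL4A2 0.00 (adjusted p = 0.988) and LAMA5 0.05 (adjusted p = 0.773), by edgeR's quasi-likelihood test with Benjamini-Hochberg adjustment. Whether they differed from the called members was not tested. Calls other than DDR2 rested on comparing libraries within a set: with time point alone in place of the library set, DDR2 kept its call (adjusted p = 0.0049) and LAMC1 (0.118), HSPG2 (0.131), SPARC (0.134), NID1 (0.232) and FN1 (0.288) did not pass.

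**Figure D4:**
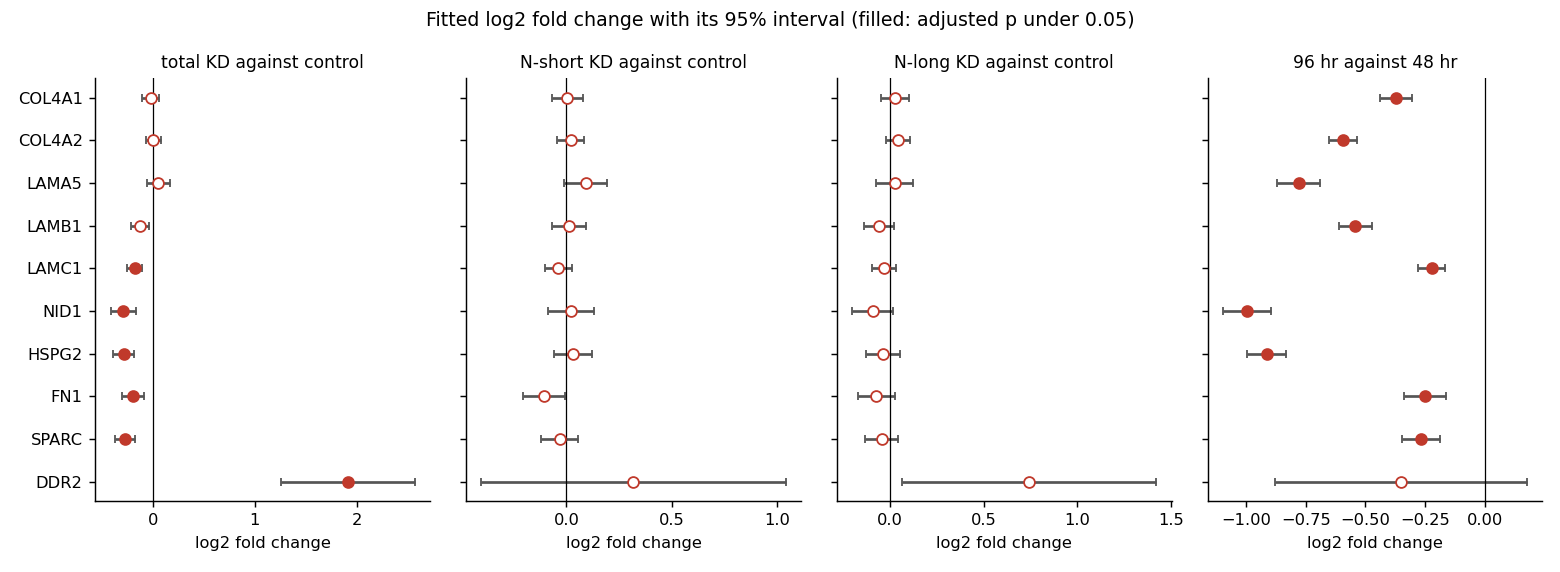
Fitted log2 fold change (horizontal axis, with 95% intervals as bars) of each member in the knockdown contrasts and between 96 and 48 hr. In the total knockdown DDR2 lies at 1.91 and HSPG2 and NID1 at -0.29, and between the times NID1 lies at -0.997.

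Some genes of the related lists also changed in the total knockdown, by the same test. Of the other collagen IV chains 2 of 4 were lower, COL4A5 (-0.49) and COL4A6 (-0.32), which pair with each other in a separate trimer, and the median of the 4 was -0.32. Of the other basement membrane proteins 3 of 19 were lower, HMCN1 (-0.37), FRAS1 (-0.20) and PXDN (-0.14), the last being the peroxidase that cross-links collagen IV. Of DDR1 and the fibrillar ligands of DDR2, 2 of 7 were lower, COL5A1 (-0.29) and COL5A2 (-0.32). Of 20 genes of collagen folding and export 2 were higher, the collagen chaperone SERPINH1 (0.21) and the export factor MIA2 (0.24). None of 8 other laminin chains, 18 genes of matrix cross-linking and turnover or 5 SPARC relatives passed. Of the lists by site of translation, 5 of 28 ER-translated genes with many introns were lower (median -0.08), as were 5 of 24 cytosol-translated genes with many introns (median -0.07). Of 26 ER-translated genes with fewer introns 4 were lower and 2 higher, and of 18 cytosol-translated ones 2 were lower.

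Markers of other cell types were compared for the same libraries. Fibroblast genes summed to 540 to 811 CPM in the controls and 588 to 763 in the total knockdown, mesoderm genes to 54.4 to 104 and 40.6 to 91.8, and endothelial genes to 54.1 to 65.1 and 56.0 to 74.7, ranges that overlapped. Pluripotency genes summed to 3737 to 4814 and 4503 to 5505, and 2 of 10 tested were higher, TDGF1 (log2 fold change 0.17) and DNMT3B (0.15). None of the fibroblast, mesoderm, endoderm, neural ectoderm and endothelial markers tested passed. The part of these in the members' values was not tested.

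Neither isoform knockdown called a member. Against control, the N-short knockdown called 0 genes (0%) by edgeR's quasi-likelihood test and 2 by DESeq2, with 537 genes and 1 member (FN1) at an unadjusted p under 0.05. The N-long knockdown called 3 genes (0.0220%) by edgeR's quasi-likelihood test and 1 by DESeq2, with 594 genes and 1 member (DDR2, log2 fold change 0.74) at an unadjusted p under 0.05. N-long against N-short called 2 genes (0.0147%) and 3 by DESeq2, with 693 genes and 1 member (NID1, -0.11) at that level.

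DDR2 in the N-long libraries was 1.73 and 0.90 CPM at 24 hr replicates 1 and 2, 2.16 at 48 hr and 1.44 at 96 hr, and in the N-short libraries 0.91, 1.32, 1.29 and 1.29. The N-long values overlapped those of the N-short libraries and of the controls, and lay below all 3 total knockdown libraries.

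The total knockdown was also compared with the N-long knockdown directly, which has a library in each of the same sets. This called 4 members among 274 genes (2.01%): DDR2 (log2 fold change 1.17, adjusted p = 0.00614), HSPG2 (-0.25, adjusted p = 7.50e-04), SPARC (-0.23, adjusted p = 0.0013) and LAMC1 (-0.15, adjusted p = 0.00715), by edgeR's quasi-likelihood test. NID1 gave -0.20 (adjusted p = 0.0526). HSPG2, SPARC and DDR2 lost their call without the 48 hr total knockdown (adjusted p = 0.0624, 0.0766 and 0.0753), and DDR2 without the 24 hr total knockdown (0.0530). This contrast shares the total knockdown libraries with the contrast above, so it is not a separate observation of them.

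More genes differed between the 48 and 96 hr sets than in any knockdown contrast run. Of the members, 9 of 10 were lower at 96 hr, where 59.0% of all genes passed and 29.7% were lower. The median log2 fold change was -0.46 over the members and -0.01 over all genes tested. The libraries of both times carry the same library series in the labels' names, with 1 library per knockdown and time. The 9 calls held when each library was left out in turn.

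NID1 had the largest change of the 10. It had 132, 101, 133 and 127 CPM at 48 hr and 58.7, 51.7, 68.4 and 58.2 at 96 hr in the control, total, N-short and N-long libraries. The groups did not overlap, and the 96 hr level was 44.5% to 51.4% of the 48 hr level in each (log2 fold change -0.997, SE 0.05, adjusted p = 6.3e-18, edgeR's quasi-likelihood test).

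HSPG2 had 748, 553, 756 and 704 CPM at 48 hr and 334, 301, 391 and 377 at 96 hr, again with no overlap (log2 fold change -0.91, SE 0.04, adjusted p = 3.1e-19, edgeR's quasi-likelihood test). All 96 of its introns were lower at 96 hr in each of the 4 pairs, as were all 19 of NID1. LAMA5, the alpha chain of the laminin that supports pluripotent cells in culture, had 531, 507, 547 and 544 CPM at 48 hr and 266, 305, 298 and 322 at 96 hr (log2 fold change -0.78, SE 0.04, adjusted p = 2.6e-16, edgeR's quasi-likelihood test).

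The other chains fell by less. COL4A2 changed by -0.59 (SE 0.03), LAMB1 by -0.54 (SE 0.03), COL4A1 by -0.37 (SE 0.03), SPARC by -0.27 (SE 0.04), FN1 by -0.25 (SE 0.04) and LAMC1 by -0.22 (SE 0.03), with adjusted p from 3.1e-18 to 9.4e-06. The fitted changes of the 3 laminin chains thus ran from -0.78 to -0.22, and differences between genes were not tested. COL4A2 had 490, 478, 502 and 508 CPM at 48 hr and 306, 309, 314 and 328 at 96 hr, and COL4A1 had 460, 433, 457 and 467 and then 331, 350, 323 and 344. DDR2, with few reads, gave -0.35 (adjusted p = 0.252, edgeR's quasi-likelihood test).

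**Figure D5:**
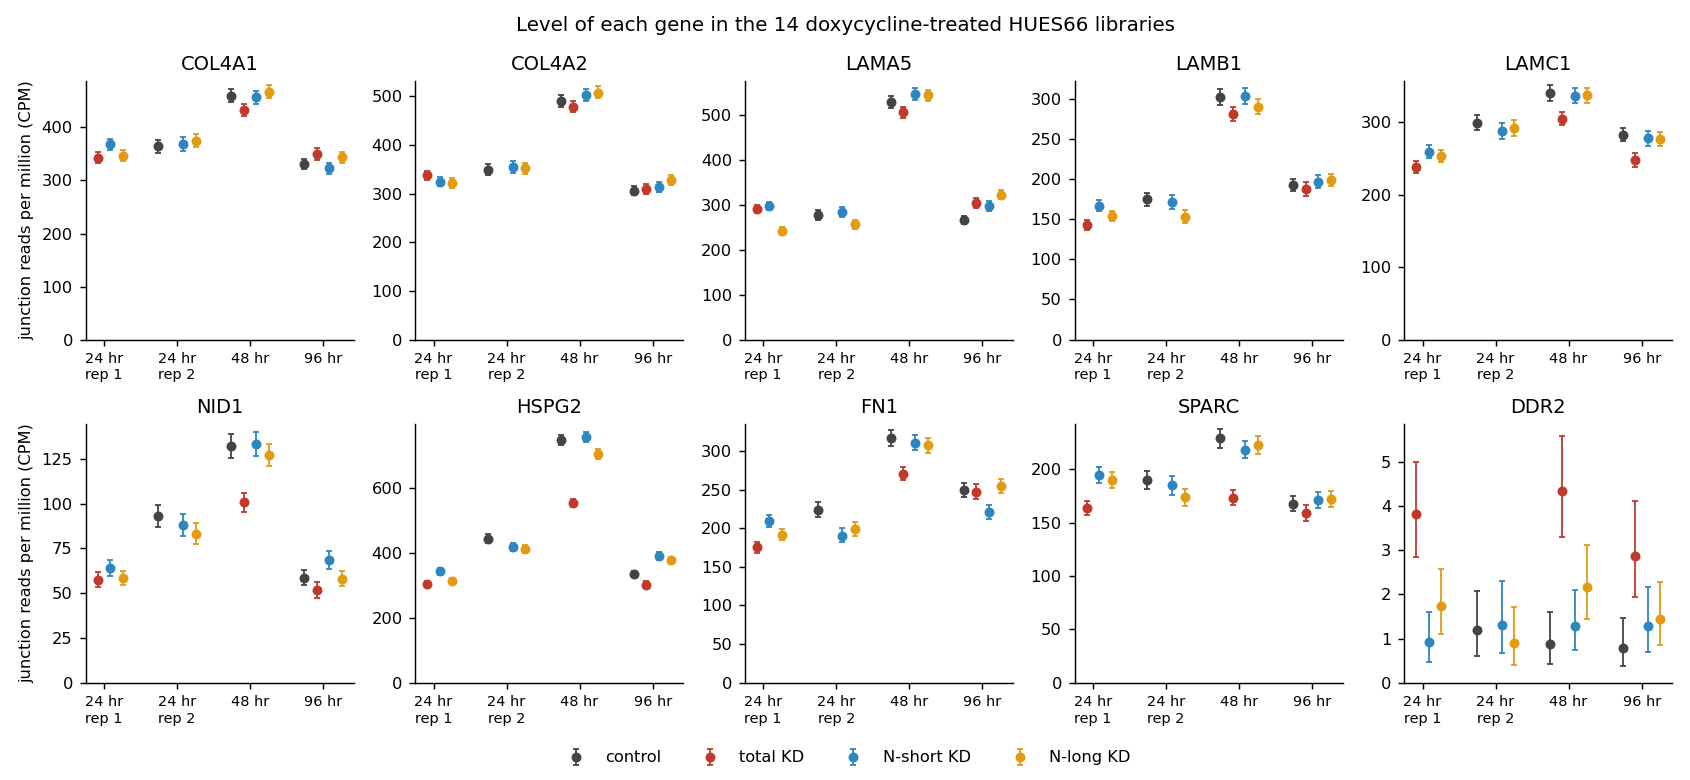
CPM (vertical axes) of each member in the 14 treated HUES66 libraries, ordered by library set and marked by knockdown. HSPG2 lies at 553 to 756 in the 48 hr set and 301 to 391 in the 96 hr set.

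The 24 hr sets lay nearer to the 96 hr set than to the 48 hr set for HSPG2 and COL4A2. HSPG2 was 305, 343 and 314 CPM in the total, N-short and N-long libraries of 24 hr replicate 1, and 444, 418 and 411 in the control, N-short and N-long libraries of replicate 2. COL4A2 was 337, 324 and 322 and then 349, 355 and 352. Both genes were highest in the 48 hr set.

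Other matrix genes were also lower at 96 hr, by the same test. All 4 other collagen IV chains were lower, COL4A3 (-1.94), COL4A4 (-1.35), COL4A6 (-1.11) and COL4A5 (-0.67). Of the other basement membrane proteins 16 of 19 were lower and 1 higher (median -0.73), led by NID2 (-1.998), the second nidogen, with FBLN2 (-0.92), HMCN1 (-0.86), EFEMP1 (-0.75), FREM2 (-0.50) and AGRN (-0.45). Of 8 other laminin chains 5 were lower, among them LAMA1 (-0.92) and LAMA3 (-0.77).

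Of 20 genes of collagen folding, modification and export, 8 were lower and 5 higher. Among all 13628 genes tested, 4052 (29.7%) were lower and 3988 higher. The lower ones of the 20 included the prolyl hydroxylases P4HA1 (-1.10) and P4HA2 (-1.17) and the lysyl hydroxylase PLOD2 (-1.10), and the isomerase PPIB was higher (0.26). Of 18 genes of cross-linking and turnover 9 were lower and 1 higher, and of 5 SPARC relatives 4 were lower.

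Summed markers of 5 of the 6 cell types listed below also differed between the times. Fibroblast genes summed to 763 to 823 CPM at 48 hr and 534 to 614 at 96 hr (DCN at 0), mesoderm genes to 91.8 to 104 and 48.2 to 65.4 (HAND1 at 0), and endoderm genes to 3.04 to 4.34 and 1.51 to 2.88 (SOX17 at 0). Neural ectoderm genes went the other way, 3.46 to 5.49 and 7.61 to 9.42, as did pluripotency genes in sum, 4296 to 4517 and 4600 to 5505. None of these ranges overlapped between the times. The pluripotency list was divided gene by gene, 4 higher and 3 lower of 10 tested, with DNMT3B at 0.81 and PODXL at -0.48 (log2 fold changes). The fibroblast list was divided too, 1 higher (POSTN, 1.41) and 3 lower of 6 tested. Only 1 gene was tested in each of the neural ectoderm (OTX2, 0.92) and endoderm (CER1, -0.99) lists, and both passed. Endothelial genes summed to 54.1 to 63.8 CPM at 48 hr and 54.6 to 58.8 at 96 hr, ranges that overlapped, and 0 of 3 tested passed. The part of these markers in the fall of the members was not tested.

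Across the 14 treated libraries, after removal of the set means, some members varied together and others did not. NID1 and HSPG2 had r = 0.94 (Pearson, log2 CPM, n = 14), and HSPG2 had rank 2 among 8710 genes in likeness to NID1. HSPG2 had r = 0.83 with LAMC1 and 0.84 with SPARC. COL4A1 and COL4A2, which share a promoter region, had r = 0.28. The genes most like LAMC1 were COL4A5 (0.96), CORO1C and NSD2, those most like HSPG2 were VPS29, NUP210 and SLC12A4, and RBFOX2 had rank 3 in likeness to LAMB1 (0.88). These are descriptions, since libraries of a set share a time point and a library series and the knockdowns are among the 14.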

How the data were processed

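The deposited files list splice junctions with read counts, 1 file per library, which the authors made from aligned RNA-seq reads. STAR 2.7.1, SAMtools 1.9 and build hg38 are named per the submitters' processing notes, with no role given. The counts are not normalized by the authors. The authors also deposited 9 rMATS tables, from which their inclusion-level differences, p-values and adjusted p-values were copied for exons of the members. The version of rMATS is not given in the sources used here, and 69 columns of per-library values in those tables were not used.

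Junctions were matched to introns of GENCODE 29 by coordinates and strand, and reads were summed per gene over introns of 1 gene. RNAs without introns, SOX2 among them, are not measured, and genes with more introns gather more reads. Genes were tested in edgeR 4.0.16 (R 4.3.3; TMM factors, filterByExpr, glmQLFit and glmQLFTest) over the 14 treated libraries with terms for library set and knockdown, and p-values were adjusted by Benjamini-Hochberg over all 13628 genes, with a threshold of 0.05. The library sets come from the time points and the library series in the labels' names. Cassette exons that averaged 20 or more reads over the libraries, with 2% to 98% of pooled reads including them (6832 of 37770), were tested by edgeR on inclusion against skipping reads with terms for library, set and knockdown. Ratios between single libraries used CPM with 0.5 reads added and exact intervals of 2 counts, and were called past 2-fold. Both tests were also run on simulated data, which were drawn without differences between library sets, so those runs do not assess the terms for set. Alternatives used DESeq2 1.42.0, limma 3.58.1 (with 0.5 reads added), other scaling and filters, and omission of each library. Descriptions used Python 3.11.15 with numpy 2.4.6, pandas 2.3.3, scipy 1.17.1 and matplotlib 3.10.9.

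Every member was described, and of each related list the genes past the threshold were named, at most 6 by smallest p. Likeness was Pearson's r over genes with a mean of at least 100 reads. The members, lists and rules were chosen with earlier results of these data known.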

Additional observations from a re-analysis of the deposited data

Results flagged for a closer look

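For the members below, the difference of a knockdown from the control of its set ran in opposite directions at 48 and 96 hr. There was 1 library per group and time, and these differences were not tested. A pair was flagged only where the exact counting intervals at both times excluded no difference from the control, on opposite sides. No other pair of member and knockdown met this rule. Some other pairs also changed side between the times, but with intervals that included no difference. SPARC in the N-long knockdown, for example, was at 97.2% of the control of its set at 48 hr and 102.6% at 96 hr. COL4A1 in the total knockdown was at 94.0% of the control of its set at 48 hr and at 106% at 96 hr. LAMA5 in the total knockdown was at 95.5% at 48 hr and 115% at 96 hr, where the N-short and N-long libraries were also above the control, at 112% and 121%. HSPG2 in the N-long knockdown was at 94.0% of control at 48 hr and 113% at 96 hr. At 96 hr each of these values shares the same control library.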

How the results depend on the processing

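Leaving out the library set as a block, with time point alone in its place, moved the counts of genes called to 62 (from 300) in the total knockdown, 0 (from 3) in the N-long knockdown, 0 (from 2) for N-long against N-short and 40 (from 274) for total against N-long. Without the block the members called fell to 1 from 6 in the total knockdown and to 0 from 4 against N-long, and the cassette exons to 0 from 1 (N-short), 21 from 32 (N-long) and 14 from 24 (N-long against N-short). With wild-type HUES66 as the control of 24 hr replicate 1, 536 genes passed in the total knockdown, with LAMB1 among them (adjusted p = 0.0244, edgeR), and 1 in the N-short knockdown. The N-short knockdown called 2 genes with DESeq2, 4 without the low-count filter and 1 with RLE factors. The N-long knockdown called 1 gene with DESeq2 and 16 without the filter, and N-long against N-short called 17 without the filter. With limma the cassette exons called were 13 (total), 0 (N-short), 0 (N-long) and 0 (N-long against N-short), and EDB in the total knockdown had -3.25. The N-short count of exons was 3 from the downstream and 5 from the upstream inclusion junction alone.

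Leaving out 1 library at a time gave 162 to 333 genes and 4 to 6 members in the total knockdown, 0 to 2 genes in the N-short, 1 to 4 in the N-long, 1 to 3 for N-long against N-short, and 149 to 247 genes and 1 to 5 members for total against N-long. Cassette exons ran from 37 to 96 (total), 0 to 2 (N-short), 18 to 36 (N-long) and 11 to 23 (N-long against N-short). EDB had log2 odds of -4.81 to -2.98 in the total and -4.07 to -2.19 in the N-long knockdown. The lowest gene count in the total knockdown was without the 96 hr control, and the lowest exon count was without the 48 hr total knockdown. The cause of these shifts was not tested.

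Among single members, 701 alternative values kept their side of the threshold, 21 lost a call and 6 gained one. Direction was kept where the main or the alternative value passed. Values that did not pass could change sign, as COL4A1 in the total knockdown did (log2 fold change -0.09 to 0.02 with 1 library left out). The 9 members lower at 96 hr, the 10 members at least 2-fold nuclear in A375 and the member counts between lines were the same under each alternative run. The lowest, median and highest A375 ratios were 8.60, 17.8 and 35.6 with TMM scaling and 8.91, 18.5 and 36.9 when centred on all genes. The A375 to HUES66 ratio of HSPG2 reversed to 0.952 with the 24 hr control. Read depth limits DDR2 in HUES66 (9 to 59 reads in the treated libraries) and exon inclusion in single libraries, such as EDB in A375 cytoplasmic RNA (2 inclusion and 8 skipping reads).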
